A study of Mus musculus with 6 samples.

Results

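Myc, Ccnd1 and Cdk4 are genes that a resting cell uses to enter the first gap phase (G1) of the cell cycle, and the values of these 3 genes are described here in horizontal basal cells 18 h after destruction of the olfactory epithelium and in the same cells of undamaged epithelium. The genes were chosen by name, with earlier results of these data known, and all 3 have a row of their own among the 8078 genes of the table. Such cells sit on the basement membrane of the olfactory epithelium as its reserve stem cells and stay dormant until the cells above them are lost. The 3 injured libraries came from mice exposed to methyl bromide gas at 180 ppm for 8 h and taken 18 h later, and the 3 uninjured libraries from mice without that lesion. All mice were 12 weeks old and of the strain labelled B6;KRT5-CreER;Ai9 fl(Stop)TdTomato, in which tamoxifen, given 2 weeks before sorting, lets a Cre recombinase under the keratin 5 promoter switch on the red protein TdTomato. Cells were sorted on TdTomato, so a library also holds any other cell that carries the label, and each library pooled the cells of several animals. PolyA RNA was sequenced, and the values are taken to be FPKM, fragments scaled to transcript length and to the size of the library, which sets genes of different length on 1 scale.

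In a dividing cell, growth signals raise Myc and the D cyclins. The transcription factor Myc pairs with Max on the E-box sequence and switches on genes of ribosome building, nucleotide and polyamine synthesis and metabolism. Cyclin D1, the product of Ccnd1, activates the kinases Cdk4 and Cdk6, which phosphorylate the retinoblastoma protein Rb1 and its relatives and so release the E2F factors that switch on genes of DNA replication. Inhibitors of the Ink4 family bind Cdk4 and Cdk6, and those of the Cip/Kip family bind cyclin-kinase complexes. Cdk4 is itself known as a direct target of Myc through E-boxes in its promoter, which links the 3 genes in 1 circuit.

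The promoter of Cdk4 is shown because of that link. The 250 bases before the RefSeq start of mouse Cdk4 (GRCm38.p6, chr10:127063285-127063534, plus strand) hold 4 copies of the E-box CACGTG, which reads the same on both strands and is set in capitals. The copies begin 172, 118, 98 and 11 bases before the start. The promoter of its paralog Cdk6 (GRCm38.p6, chr5:3343643-3343892, plus strand) is set beside it and holds 1 copy, 220 bases before the start.
Cdk4: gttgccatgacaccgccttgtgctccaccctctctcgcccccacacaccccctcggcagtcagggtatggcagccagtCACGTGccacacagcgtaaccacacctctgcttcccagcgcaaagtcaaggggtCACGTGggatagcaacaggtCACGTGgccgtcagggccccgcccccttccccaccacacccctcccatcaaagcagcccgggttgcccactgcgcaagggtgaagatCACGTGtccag
Cdk6: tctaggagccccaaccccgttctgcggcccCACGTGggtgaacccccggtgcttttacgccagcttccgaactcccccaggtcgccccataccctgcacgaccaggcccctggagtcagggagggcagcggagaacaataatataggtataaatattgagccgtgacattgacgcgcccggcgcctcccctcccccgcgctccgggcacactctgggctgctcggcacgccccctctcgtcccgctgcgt
Of 32851 promoter windows of that length in RefSeq, 6.02% hold at least 1 CACGTG, 0.429% at least 2, and 7 windows (0.0213%) hold 4 or more. The Myc and Ccnd1 promoters are not shown. These sequences come from the reference genome, and binding of Myc was not measured.

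All 3 genes were more abundant on average after the lesion, but Myc and Ccnd1 exceeded every uninjured library in only 2 of the 3 injured libraries. Cdk4, the catalytic kinase, was the only one of the 3 genes whose injured libraries all lay above all uninjured ones. Injured replicate 2 stood apart for all 3 genes and lay close to the uninjured libraries. None of the 3 genes passed limma's test over all genes at an adjusted p of 0.05.

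Myc was at 25.6, 8.49 and 29.8 FPKM in injured replicates 1 to 3, against 10.6, 9.35 and 14.8 FPKM in uninjured replicates 1 to 3. Injured replicates 1 and 3 were above every uninjured library, while injured replicate 2 was the lowest of the 6, so the groups overlapped. The means were 21.3 ± 11.3 FPKM in injured and 11.6 ± 2.87 FPKM in uninjured libraries (SD, n = 3 each). On the log2(FPKM + 1) scale, which understates changes of low genes, the injured mean was higher by 0.68 (95% interval -0.31 to 1.66, limma adjusted p = 0.575, exact permutation p = 0.4). Without injured replicate 2 the difference was 1.21 (95% interval 0.61 to 1.81, limma adjusted p = 0.0486), and without injured replicate 3 it was 0.36.

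Ccnd1 was at 79.1, 33.5 and 102 FPKM in injured replicates 1 to 3, against 22.7, 32.7 and 37.3 FPKM in uninjured replicates 1 to 3. Injured replicates 1 and 3 were each more than the highest uninjured library, and injured replicate 2 fell within the uninjured range. The means were 71.7 ± 35.1 FPKM in injured and 30.9 ± 7.45 FPKM in uninjured libraries (SD, n = 3 each), a ratio of 2.32. The difference was 1.08 on the log2 scale (95% interval 0.14 to 2.01, limma adjusted p = 0.393, exact permutation p = 0.2). It was 1.54 without injured replicate 2 (95% interval 0.87 to 2.21, limma adjusted p = 0.0381).

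Cdk4 was at 84.8, 51.3 and 87.4 FPKM in injured replicates 1 to 3, against 31.5, 48.3 and 43.2 FPKM in uninjured replicates 1 to 3. The groups did not overlap, but injured replicate 2 exceeded the highest uninjured library by less than the uninjured libraries differed among themselves. The same order held after upper-quartile scaling, with 53.3 in injured replicate 2 against 51.1 in the highest uninjured library, and after leaving out Mir703, with 58.0 against 48.9. The means were 74.5 ± 20.2 FPKM in injured and 41.0 ± 8.61 FPKM in uninjured libraries (SD, n = 3 each), a ratio of 1.82. The log2 difference was 0.83 (95% interval 0.12 to 1.53, limma adjusted p = 0.383), with an exact permutation p = 0.1, which is the smallest that 3 against 3 libraries allow. Without injured replicate 2 it was 1.07 (limma adjusted p = 0.0657).

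**Figure D1:**
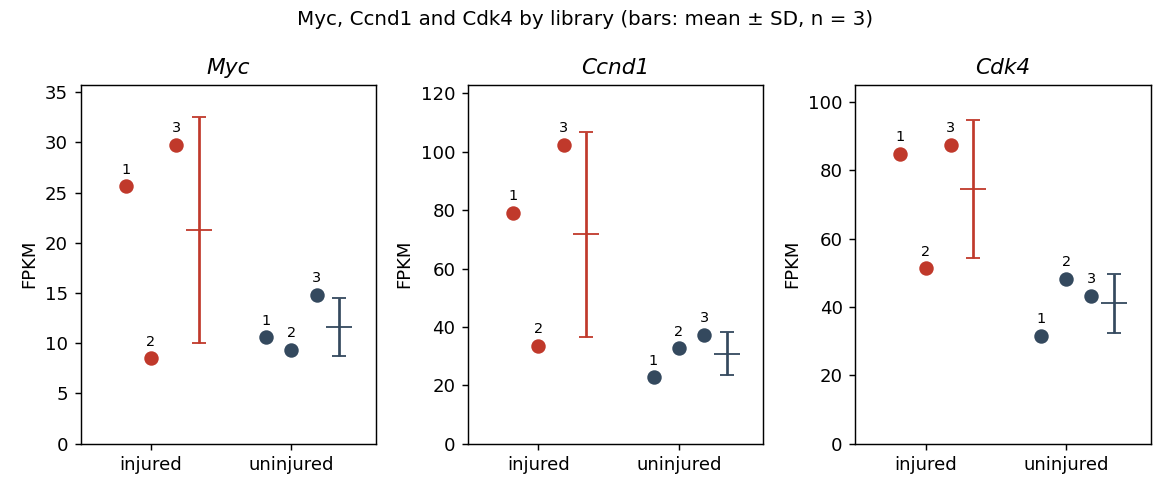
FPKM of Myc, Ccnd1 and Cdk4 in each library (points, numbered by replicate) with the mean ± SD of each group (n = 3), injured at the left and uninjured at the right of each panel. Injured replicates 1 and 3 stand above all uninjured libraries for each gene, and injured replicate 2 does so for Cdk4 only, at 51.3 against at most 48.3 FPKM.

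These differences are to be read against the whole table. The injured libraries lay wholly above the uninjured ones for 12% of 7987 genes tested and wholly below for 6.75%. limma called 0 genes higher (0%) and 1 lower (0.0125%) over the 6 libraries. Before adjustment, limma's p was under 0.05 for 571 genes (7.15%) with a higher and 323 (4.04%) with a lower injured mean. Without injured replicate 2, 274 genes (3.43%) were higher and 91 (1.14%) lower. The median log2 difference of all genes tested was 0.155, and the differences of Ccnd1, Cdk4 and Myc exceeded those of 95.6%, 91.7% and 86.9% of them. The median became -0.008 with upper-quartile scaling, with Ccnd1 then at 0.89, Cdk4 at 0.64 and Myc at 0.50.

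The calls of Myc and Ccnd1 without injured replicate 2 depended on the scaling of the libraries. With that library left out and upper-quartile scaling, quantile normalization or removal of Mir703, the limma adjusted p lay between 0.0898 and 0.104 for Myc and between 0.0536 and 0.0597 for Ccnd1. Mir703 matters for scaling because its entry alone took 8.01% to 18.6% of summed FPKM in injured libraries and 22% to 25.4% in uninjured ones. The log2 differences of the 3 genes kept their sign in all 21 settings tried, between 0.36 and 1.21 for Myc, 0.75 and 1.54 for Ccnd1, and 0.64 and 1.07 for Cdk4.

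**Figure D2:**
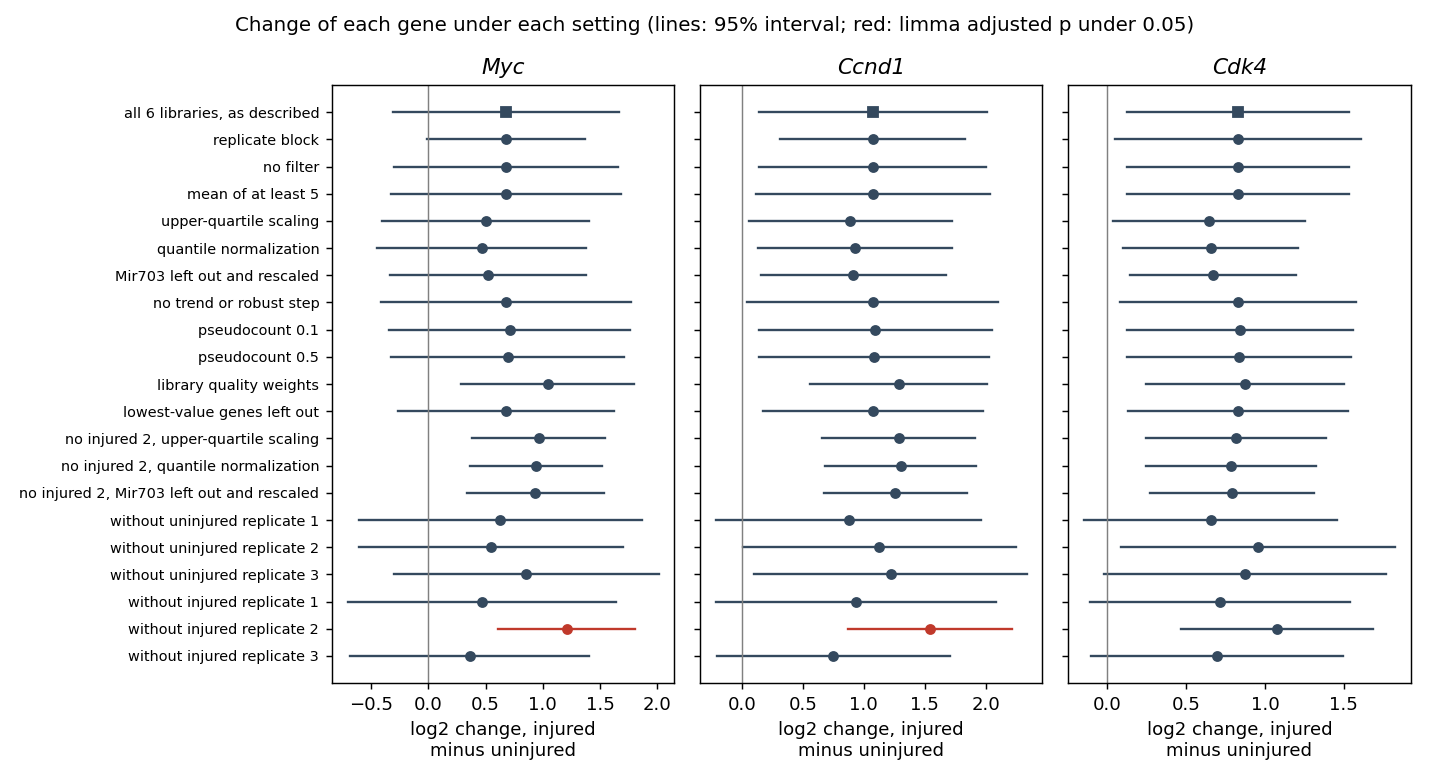
Log2 difference, injured minus uninjured (horizontal axis), of Myc, Ccnd1 and Cdk4 under each setting (rows), with the 95% interval from limma. All 21 point values of each gene lie above 0, and the adjusted p is under 0.05 (red) only for Myc and Ccnd1 when injured replicate 2 is left out with the values as deposited.

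Ranked by FPKM within a library, Cdk4 was the most steadily abundant of the 3 genes. Cdk4 ranked between 309 and 443 of 8078 genes in injured libraries and between 520 and 804 in uninjured ones. Ccnd1 ranked 341, 789 and 243 in injured replicates 1 to 3, against 1250, 856 and 751 in uninjured replicates 1 to 3. Myc stood lower in the list, at 1436, 4022 and 1208 in injured replicates 1 to 3, against 3013, 3467 and 2217 in uninjured replicates 1 to 3. By FPKM, Myc was the lowest of the 3 in every library, and Ccnd1 was below Cdk4 in every library but injured replicate 3. The ratio of Ccnd1 to Cdk4 overlapped between the groups, at 0.932, 0.653 and 1.17 in injured and 0.720, 0.676 and 0.863 in uninjured replicates 1 to 3.

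Ccnd1 made up a larger share of the D cyclins after the lesion, and in this share injured replicate 2 went with the other injured libraries. In that library Ccnd1 itself was within the uninjured range, at 33.5 FPKM. Its share was high there because Ccnd2 and Ccnd3, at 21.5 and 9.58 FPKM, were each the lowest of the 6 libraries. Cyclins D1, D2 and D3 activate the same kinases and are the products of 3 genes. Ccnd1 was 62.3%, 51.8% and 61.2% of the summed FPKM of Ccnd1, Ccnd2 and Ccnd3 in injured replicates 1 to 3, against 30.0%, 37.0% and 41.0% in uninjured replicates 1 to 3. The groups did not overlap, and the lowest injured share was above the highest uninjured one by more than the SD within either group. The means were 58.4 ± 5.74% in injured and 36.0 ± 5.56% in uninjured libraries (SD, n = 3 each), a difference of 22.4 percentage points (exact permutation p = 0.1, the smallest this design allows). A share within a library does not depend on how libraries were scaled against each other. With any 1 library left out the difference stayed between 19.4 and 25.7 points.

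Ccnd2 and Ccnd3 did not differ between the groups beyond the spread of the libraries. Ccnd2 was at 35.5, 21.5 and 48.7 FPKM in injured replicates 1 to 3, against 40.6, 43.6 and 31.6 in uninjured replicates 1 to 3. Its log2 difference was -0.19 (95% interval -0.93 to 0.55, limma adjusted p = 0.849). Ccnd3 was at 12.4, 9.58 and 16.2 FPKM in injured and 12.3, 12.1 and 21.9 in uninjured replicates 1 to 3, with a log2 difference of -0.24 (95% interval -0.93 to 0.46, limma adjusted p = 0.792). Both genes overlapped between the groups. In uninjured replicates 1 and 2 Ccnd2 was the most abundant D cyclin, and in all 3 injured libraries Ccnd1 was. The sum of the D cyclins was 127, 64.6 and 167 FPKM in injured replicates 1 to 3, against 75.6, 88.3 and 90.8 in uninjured replicates 1 to 3.

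**Figure D3:**
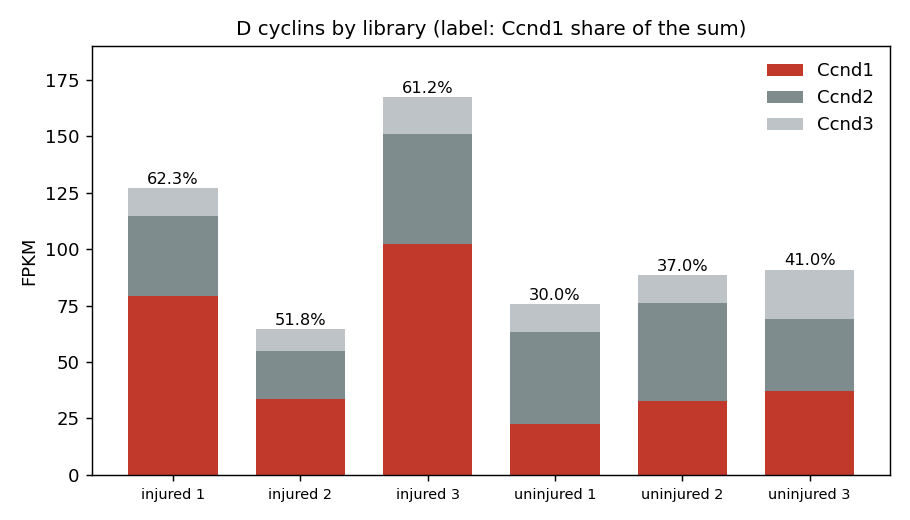
Stacked FPKM of Ccnd1, Ccnd2 and Ccnd3 in each library, the 3 injured libraries at the left and the 3 uninjured at the right, with the share of Ccnd1 printed above each bar. The share is 51.8% to 62.3% in injured and 30.0% to 41.0% in uninjured libraries. In injured replicate 2 the total, Ccnd2 and Ccnd3 are each the lowest of the 6, and Ccnd1 is within the uninjured range.

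Of the kinases, Cdk4 far exceeded its paralog Cdk6 in both groups. Cdk6 was at 5.10, 5.97 and 13.2 FPKM in injured replicates 1 to 3, against 3.96, 8.11 and 6.15 in uninjured replicates 1 to 3 (log2 difference 0.30, 95% interval -0.55 to 1.15, limma adjusted p = 0.783). Cdk4 was 90.3 ± 3.78% of the sum of the 2 in injured and 87.3 ± 1.61% in uninjured libraries (SD, n = 3 each), and the groups overlapped (difference 2.93 points, exact permutation p = 0.3). Cdk2, the partner of the E cyclins later in G1, was at 6.14 ± 2.08 in injured and 4.76 ± 0.306 FPKM in uninjured libraries (limma adjusted p = 0.767). Ccne2, an E cyclin, was listed at 0.001, the lowest value in the table, in all uninjured libraries and in injured replicate 2, while injured replicates 1 and 3 had 2.13 and 1.74 FPKM, with a mean too low to be tested. Of 13 symbols on the list of G1 cyclins, their kinases and activators, 10 had an entry and 9 were tested. Of these 7 were positive, where 62.9% of all genes were, and Cdk4 alone lay wholly above, where 12% of all genes did. limma called none, and the list median was 0.282 beside 0.155 for all genes tested (0.110 beside -0.008 with upper-quartile scaling). Ccnd1 was the 1 called higher without injured replicate 2, where 3.43% of all genes were.

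The inhibitors of these kinases had no common direction. Cdkn1b, which encodes the Cip/Kip inhibitor p27, was at 7.15, 6.39 and 10.3 FPKM in injured replicates 1 to 3, against 8.75, 16.7 and 11.9 in uninjured replicates 1 to 3 (log2 difference -0.57, 95% interval -1.25 to 0.11, limma adjusted p = 0.507). The groups overlapped through injured replicate 3. The ratio of Ccnd1 to Cdkn1b, a quantity chosen after the values were seen, was 11.1, 5.24 and 9.96 in injured and 2.60, 1.95 and 3.14 in uninjured replicates 1 to 3. It was above every uninjured library in each injured one.

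Cdkn1a, which encodes the p53-responsive inhibitor p21, was at 22.1, 15.9 and 136 FPKM in injured replicates 1 to 3, against 16.5, 16.3 and 16.5 in uninjured replicates 1 to 3 (limma adjusted p = 0.604). The high mean of the injured group came from injured replicate 3. Cdkn1c, another Cip/Kip inhibitor, was at 6.64 ± 1.98 in injured and 4.31 ± 0.803 FPKM in uninjured libraries, and the Ink4 inhibitor Cdkn2c at 5.10 ± 1.61 and 6.23 ± 2.21 FPKM (limma adjusted p = 0.564 and 0.821). Cdkn3, a phosphatase that acts on cyclin-dependent kinases, was at 1.34, 3.53 and 3.36 FPKM in injured and 0.677, 1.09 and 0.952 in uninjured replicates 1 to 3, without overlap (limma adjusted p = 0.539). Of 8 inhibitors listed 5 were tested and none was called. Their median was 0.501, with 2 differences below 0 and 3 above, where 62.9% of all genes were. Cdkn3 alone lay wholly above the uninjured libraries, where 12% of all genes did.

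Downstream of the kinases, the pocket proteins differed among themselves. Rbl1, which encodes the Rb relative p107 and is known to be an E2F target, was at 9.61, 3.83 and 10.2 FPKM in injured replicates 1 to 3, against 4.31, 2.70 and 4.40 in uninjured replicates 1 to 3 (log2 difference 0.81, limma adjusted p = 0.466). It shared with Myc and Ccnd1 the high values of injured replicates 1 and 3. Rb1 had its highest value in injured replicate 2 instead, with 11.04, 29.0 and 18.3 FPKM in injured and 13.0, 11.9 and 10.8 in uninjured replicates 1 to 3 (limma adjusted p = 0.547). Rbl2, the p130 protein of resting cells, was at 12.4 ± 1.08 in injured and 14.7 ± 3.05 FPKM in uninjured libraries (limma adjusted p = 0.761). Tfdp1, the dimer partner of E2F factors, was higher in each injured library than in any uninjured one, with 28.3, 21.4 and 19.6 against 14.9, 10.7 and 10.5 FPKM in replicates 1 to 3 (log2 difference 0.89, limma adjusted p = 0.306). Of 13 pocket and E2F genes 6 were tested, 4 of them positive, where 62.9% of all genes were. The list median was 0.561 and none was called. Tfdp1 alone lay wholly above, where 12% of all genes did, and E2f1 was not analysed here.

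Max, the obligate partner of Myc, was at 28.0, 28.0 and 24.1 FPKM in injured replicates 1 to 3, against 24.7, 82.4 and 22.3 in uninjured replicates 1 to 3, with uninjured replicate 2 far above the rest (log2 difference -0.41, 95% interval -1.45 to 0.62, limma adjusted p = 0.750). Myc was below Max in every library except injured replicate 3. Fbxw7, the ubiquitin ligase subunit that marks Myc for degradation, was at 7.54 ± 1.14 in injured and 8.40 ± 2.13 FPKM in uninjured libraries (limma adjusted p = 0.888). Of the 13 genes of the Myc, Max and Mxd network 4 had an entry, 2 of them positive, where 62.9% of all genes were. None was called over the 6 libraries, and the median was -0.013 (-0.179 with upper-quartile scaling). Mycn, Mycl, Mxd1, Mxi1, Mnt and Mga were not analysed here.

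**Figure D4:**
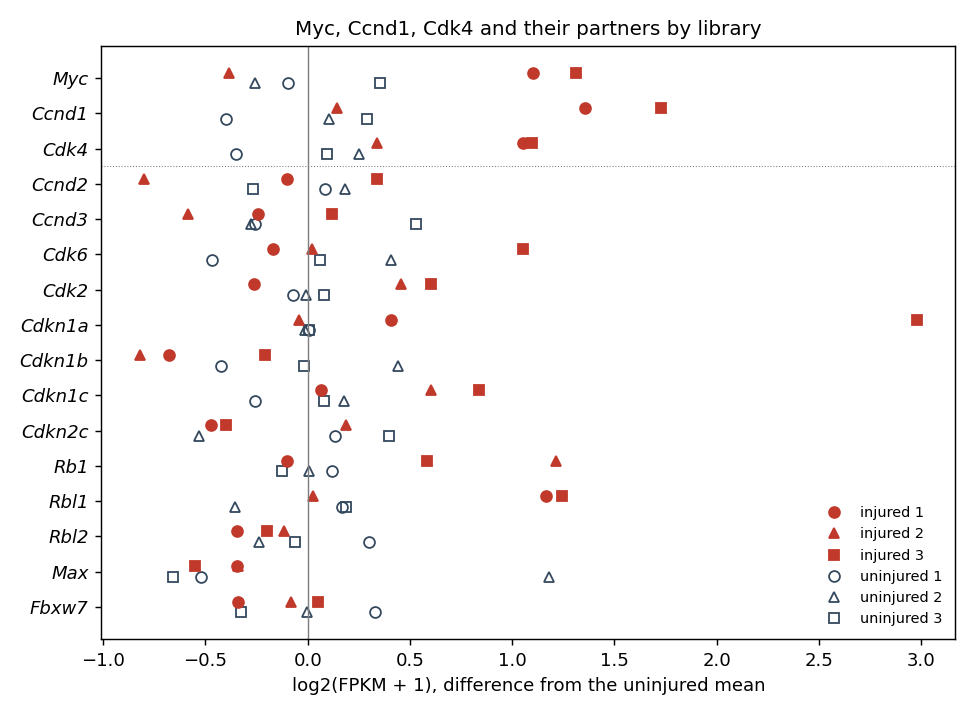
Difference of each library from the uninjured mean on the log2(FPKM + 1) scale for Myc, Ccnd1 and Cdk4 (above the dotted line) and for 13 partners (below it), injured libraries filled and uninjured ones open, with a marker shape per replicate. Injured replicates 1 and 3 lie to the right for Myc, Ccnd1, Cdk4 and Rbl1, while Cdkn1a is far to the right in injured replicate 3 only, at 136 FPKM.

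Among cofactors of Myc, Ruvbl2, an ATPase of the TIP60 complex, was at 40.3, 21.6 and 43.0 FPKM in injured replicates 1 to 3, against 19.8, 19.2 and 20.4 in uninjured replicates 1 to 3 (log2 difference 0.73, limma adjusted p = 0.407). Its groups did not overlap, as was also true of Trrap, Skp2 and Wdr5, and 0 of the 10 cofactors tested lay wholly below. That is 4 of 10 genes wholly above, where 12% of all genes were, and none was called. Without injured replicate 2, 1 of them, Ruvbl2, was called higher, where 3.43% of all genes were. The list median was 0.251 (0.082 with upper-quartile scaling), and 6 of the 10 were positive, where 62.9% of all genes were. Ppp2r5a, a phosphatase subunit and among the most abundant of the list, overlapped between the groups, at 11.5, 6.51 and 12.2 FPKM in injured and 11.5, 8.21 and 13.4 in uninjured replicates 1 to 3 (limma adjusted p = 0.884).

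Known targets of Myc, the genes of growth and metabolism, had higher means after the lesion. Of 26 listed 21 were tested, Cdk4 among them, and all 21 had a positive log2 difference, also under the 3 other scalings, as had 62.9% of all genes, and the list median was 0.835 (0.651 with upper-quartile scaling) beside 0.155 for all genes (-0.008). Over the 6 libraries limma called none, and without injured replicate 2 it called 10 higher, where 3.43% of all genes were, with a list median of 1.27. Wholly above the uninjured libraries were 5 of the 21, where 12% of all genes were, namely Cdk4, Srm, Mybbp1a, Eif2s1 and Pa2g4. Srm, which makes spermidine, was at 23.9, 6.84 and 25.6 FPKM in injured replicates 1 to 3, against 4.49, 3.99 and 4.91 in uninjured replicates 1 to 3 (log2 difference 1.67, limma adjusted p = 0.254). Mybbp1a, a nucleolar protein, was at 24.6, 12.3 and 84.7 FPKM in injured and 7.50, 8.53 and 7.60 in uninjured replicates 1 to 3 (limma adjusted p = 0.376). Both genes showed a smaller excess in injured replicate 2 than in the other injured libraries. Eif2s1, a subunit of the translation initiation factor eIF2, was at 40.6, 11.8 and 25.9 FPKM in injured and 10.2, 6.48 and 9.12 in uninjured replicates 1 to 3 (limma adjusted p = 0.314). Ldha, the lactate dehydrogenase, was at 348, 94.5 and 288 FPKM in injured and 93.3, 85.5 and 109 in uninjured replicates 1 to 3 (limma adjusted p = 0.408), and here injured replicate 2 lay within the uninjured range. Ncl, which encodes nucleolin and was among the most abundant of the list, overlapped between the groups, with 63.3, 34.9 and 194 FPKM in injured and 92.7, 41.0 and 34.7 in uninjured replicates 1 to 3 (limma adjusted p = 0.763). In RefSeq, 7 of 21 targets with a promoter entry held a CACGTG in the 250 bases before a start, beside 6.86% of 27025 genes. The 7 were Cdk4, Eif4a1, Eif4e, Hspd1, Ldha, Nme1 and Ran. Eif4a1 and Nme1 had no expression entry, so these 21 are not the same as the 21 tested. Because the list holds known direct targets of Myc, this share says nothing about the changes after the lesion.

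Targets of E2F, the step after Rb, carry out DNA replication. Of 23 listed 17 were tested, 16 with a positive difference (15 under each of the 3 other scalings), and the list median was 1.05. Of these, 11 lay wholly above the uninjured libraries, where 12% of all genes did. limma called none over the 6 libraries and 6 higher without injured replicate 2, where 3.43% of all genes were. Mcm3, a subunit of the replicative helicase, was at 12.7, 4.51 and 15.9 FPKM in injured replicates 1 to 3, against 1.56, 1.64 and 1.67 in uninjured replicates 1 to 3 (log2 difference 2.05, limma adjusted p = 0.174). Gins2, another helicase component, was at 26.7, 10.1 and 30.1 FPKM in injured and 3.43, 5.96 and 5.57 in uninjured replicates 1 to 3 (limma adjusted p = 0.181), and Mcm2 at 15.2, 4.98 and 16.4 against 1.35, 2.62 and 2.77 FPKM (limma adjusted p = 0.181). Injured replicate 2 was thus above all uninjured libraries for these 3 genes, though below the other injured ones. The most abundant of the list overlapped between the groups. Mcm4, a further helicase subunit, was at 25.6, 9.43 and 30.1 FPKM in injured and 7.81, 15.9 and 6.89 in uninjured replicates 1 to 3 (limma adjusted p = 0.478). Slbp, which binds histone mRNA, was at 17.2, 11.2 and 20.9 FPKM in injured and 11.5, 12.2 and 10.7 in uninjured replicates 1 to 3 (limma adjusted p = 0.564).

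Of 12 mitotic genes 9 were tested and all 9 were positive, where 62.9% of all genes were, but only 5 of the 9 were without injured replicate 2, with a median of 0.459 that became 0.111 without injured replicate 2, and none was called. Top2a and Cdk1, 2 of the 9, lay wholly above the uninjured libraries, where 12% of all genes did. Top2a, the topoisomerase of chromosome separation, was at 6.45, 14.8 and 7.24 FPKM in injured and 4.97, 4.32 and 4.47 in uninjured replicates 1 to 3 (limma adjusted p = 0.397), so its highest value was in injured replicate 2. Ube2c, a ubiquitin-conjugating enzyme of mitosis, was likewise highest there, with 5.55, 13.1 and 4.01 FPKM in injured and 4.64, 6.01 and 4.65 in uninjured replicates 1 to 3 (limma adjusted p = 0.750). Cdk1, the mitotic kinase, was at 3.73, 2.28 and 2.53 FPKM in injured and 1.87, 0.790 and 1.12 in uninjured replicates 1 to 3 (limma adjusted p = 0.560).

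**Figure D5:**
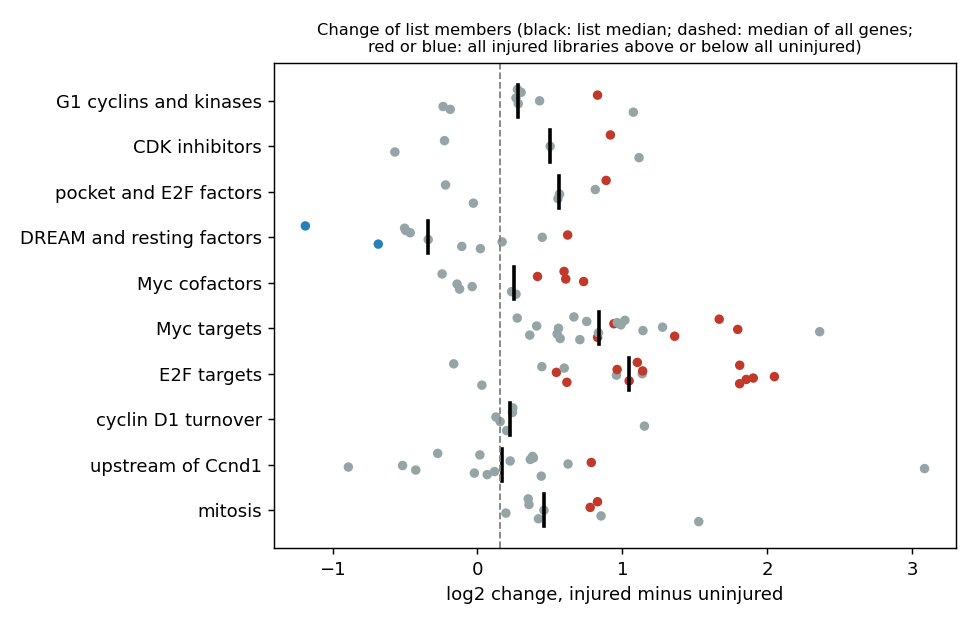
Log2 difference, injured minus uninjured (horizontal axis), of each tested gene in 10 lists (rows), with the list median as a black bar and the median of all genes tested, 0.155, as a dashed line. Red and blue points are genes whose injured libraries all lie above or all below the uninjured ones. The medians of the Myc and E2F targets are 0.835 and 1.05, and that of the DREAM and resting factors is -0.34.

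No gene of resting cells was called over the 6 libraries. The list of DREAM complex subunits and anti-proliferative factors had a median of -0.34 over 11 genes, 7 of them negative (8 or 9 under the other scalings, 6 without injured replicate 2), with 2 wholly below the uninjured libraries, where 6.75% of all genes were, and 1 wholly above. Txnip, an inhibitor of thioredoxin and of glucose uptake that is high in resting cells, was at 53.4, 68.9 and 42.6 FPKM in injured replicates 1 to 3, against 137, 110 and 127 in uninjured replicates 1 to 3 (log2 difference -1.19, limma adjusted p = 0.200). Foxo1, a transcription factor that restrains the cell cycle, was at 24.1, 25.6 and 38.5 FPKM in injured and 48.5, 45.9 and 46.2 in uninjured replicates 1 to 3 (limma adjusted p = 0.397). For both genes every injured library, replicate 2 included, was below every uninjured one. limma called none of the list over the 6 libraries. Without injured replicate 2 it called 1 lower, Txnip (limma adjusted p = 0.0357), where 1.14% of all genes were. Lin9, a DREAM subunit, was the 1 gene of the 11 wholly above, where 12% of all genes were. Btg2, an anti-proliferative factor and among the most abundant of the list, overlapped between the groups, at 56.7, 42.7 and 143 FPKM in injured and 104, 67.3 and 62.3 in uninjured replicates 1 to 3 (log2 difference -0.11, limma adjusted p = 0.945).

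Mitogen and Wnt factors were listed as known drivers of Ccnd1 transcription and were not split into activators and repressors. Their median was 0.172 over the 16 tested of 19, beside 0.155 for all genes (-0.009 beside -0.008 with upper-quartile scaling). Of these 11 were positive (8 under each of the other scalings), where 62.9% of all genes were, and none was called. The most abundant of them overlapped between the groups. Fos, an AP-1 subunit, was at 259, 104 and 473 FPKM in injured and 464, 243 and 276 in uninjured replicates 1 to 3 (log2 difference -0.43, limma adjusted p = 0.785). Ctnnb1, the transcriptional arm of Wnt signalling, was at 143, 93.0 and 148 FPKM in injured and 125, 122 and 112 in uninjured replicates 1 to 3 (log2 difference 0.07, limma adjusted p = 0.949). The AP-1 subunits Junb and Jund had log2 differences of -0.89 and -0.52 (limma adjusted p = 0.564 and 0.570). Only 1 of the 16 lay wholly above the uninjured libraries, where 12% of all genes did. It was Map2k1, the MEK1 kinase of the growth factor cascade, at 12.5, 14.03 and 28.1 FPKM in injured and 9.94, 7.01 and 12.1 in uninjured replicates 1 to 3 (limma adjusted p = 0.436). Fosl1, a further AP-1 subunit, named after its values were seen, was at 25.3, 1.08 and 43.9 FPKM in injured replicates 1 to 3. It was at 1.10, 0.001 and 0.913 FPKM in uninjured replicates 1 to 3 (limma adjusted p = 0.407), so it too was high in injured replicates 1 and 3 alone. It was the 1 gene of the list called higher without injured replicate 2 (limma adjusted p = 0.00637), where 3.43% of all genes were. Of 8 genes of cyclin D1 turnover 6 were tested, with a median of 0.221 that was 0.048 with upper-quartile scaling, and none was called. Without injured replicate 2, 1 of the 6 was called higher, where 3.43% of all genes were. It was Cryab, a small heat shock protein that is a cofactor of cyclin D1 degradation (limma adjusted p = 0.0390 in that fit). Cryab was at 121, 19.0 and 115 FPKM in injured and 33.7, 16.9 and 40.5 in uninjured replicates 1 to 3. Skp1a, a subunit of the ubiquitin ligases of that turnover, overlapped between the groups, at 276, 143 and 312 FPKM in injured and 146, 211 and 243 in uninjured replicates 1 to 3 (limma adjusted p = 0.838).

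The genes most like each member in profile were sought among 5631 others with a single symbol, a mean of at least 5 FPKM and no library at the lowest listed value. Likeness was the root mean square distance between log2(FPKM + 1) profiles centred on their means over the 6 libraries. These distances are descriptions without a test. Nearest to Ccnd1 were Shmt2 (0.100), Ethe1 (0.124), Ttll12 (0.135) and Odc1 (0.137). Of these Shmt2, the mitochondrial serine hydroxymethyltransferase, and Odc1, which starts polyamine synthesis, were on the list of Myc targets. Nearest to Myc were Tpbg (0.095), Prkcdbp (0.140), Pls3 (0.148) and Capzb (0.156), of which Pls3 and Capzb encode proteins that bundle or cap actin filaments. Nearest to Cdk4 were Git1 (0.064), Psma2 (0.081), Tcp1 (0.085) and Emd (0.100), where Psma2 is a proteasome subunit and Tcp1 a subunit of the cytosolic chaperonin. No gene named here as nearest to Myc or to Cdk4 was on the list of Myc targets. The 3 genes were not each other's nearest, with distances of 0.290 between Myc and Ccnd1, 0.289 between Ccnd1 and Cdk4, and 0.393 between Myc and Cdk4. Among the genes nearest to Ccnd1, Cdk4 had rank 107 and Myc rank 111. From Myc, Ccnd1 had rank 178 and Cdk4 rank 589, and from Cdk4, Ccnd1 had rank 467 and Myc rank 1250.

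The libraries also differed in genes of other cell types, and in bulk RNA fewer cells of a type and less RNA per cell cannot be told apart. Of the horizontal basal cell markers Trp63 was at 112, 99.5 and 140 FPKM in injured and 187, 194 and 157 in uninjured replicates 1 to 3, so the labelled cell type was represented in every library, while Krt5 was not analysed here. The summed FPKM of the 6 of 8 such markers with an entry of their own was 169.8 to 346.3 in injured and 259.7 to 296.6 in uninjured libraries. Itgb4, an integrin subunit that anchors cells to the basement membrane, was at 56.5, 32.7 and 69.4 FPKM in injured and 37.2, 40.0 and 41.7 in uninjured replicates 1 to 3. Itga6, an integrin subunit of these cells, was at 32.0, 11.6 and 48.3 FPKM in injured and 15.9, 13.4 and 15.5 in uninjured replicates 1 to 3. Injured replicate 2 was the highest library in the summed markers of globose basal cells and neuronal precursors and in Gap43 of immature neurons. In that library Ezh2 was at 21.0 FPKM and Gap43 at 113, against 7.94 and 11.6 and against 2.44 and 2.76 in injured replicates 1 and 3. Any link of these markers to the values of Myc and Ccnd1 was not tested.

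Markers of mature neurons had lower means after the lesion, and Gap43, Stmn2 and Tubb3 of immature ones were high in injured replicate 2 alone. Of 10 neuron markers 8 were tested, with a list median of -1.22 (-1.62 without injured replicate 2), and 3 lay wholly below the uninjured libraries, where 6.75% of all genes did. Stoml3 was at 111, 168 and 94.0 FPKM in injured and 316, 370.5 and 561 in uninjured replicates 1 to 3. Adcy3, the adenylyl cyclase of odour signalling, was at 3.10, 8.00 and 5.05 FPKM in injured and 19.0, 14.8 and 13.1 in uninjured replicates 1 to 3. Cnga4, a subunit of the odour-gated channel, was at 3.01, 4.42 and 2.53 FPKM in injured and 7.52, 10.6 and 10.5 in uninjured replicates 1 to 3. Gng13, a G protein subunit of these neurons, overlapped, with 20.7, 129 and 14.9 FPKM in injured and 60.8, 139 and 126 in uninjured replicates 1 to 3. limma called none of the 8 over the 6 libraries and 5 lower without injured replicate 2, where 1.14% of all genes were. The summed FPKM of the 8 was 130.9 to 607.8 in injured and 436.4 to 764.5 in uninjured libraries, the highest injured sum being that of replicate 2.

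The 5 of 6 precursor markers with an entry summed to 24.0 to 55.1 FPKM in injured and 19.7 to 24.3 in uninjured libraries. Of these 5, Lgr5, Neurod1 and Ezh2 lay wholly above, where 12% of all genes did, and Neurod1 and Ezh2 were highest in injured replicate 2. Neurod1 was at 5.30, 9.71 and 2.87 FPKM in injured and 1.303, 2.41 and 2.30 in uninjured replicates 1 to 3, and Lgr5 at 3.72, 4.04 and 8.20 against 2.36, 2.11 and 3.15 FPKM. Hes6 overlapped, with 4.84, 12.9 and 5.20 against 5.26, 10.5 and 9.06 FPKM. Among 4 of 7 sustentacular markers, which summed to 205.6 to 619.5 FPKM in injured and 256.0 to 318.1 in uninjured libraries, the genes had opposite directions. Of the 4, the detoxifying enzyme Cyp1a2 alone lay wholly below, where 6.75% of all genes did. Cyp1a2 was at 5.93, 23.4 and 7.21 FPKM in injured and 35.3, 59.2 and 58.1 in uninjured replicates 1 to 3 (limma adjusted p = 0.181, and 0.00859 without injured replicate 2). The keratin Krt18, which carried most of the sum, was at 390, 119 and 558 FPKM in injured and 133, 160 and 173 in uninjured replicates 1 to 3 (limma adjusted p = 0.542, and 0.0365 without injured replicate 2). Sult1c1, a sulfotransferase, was at 45.4, 34.2 and 24.8 FPKM in injured and 46.0, 44.4 and 45.7 in uninjured replicates 1 to 3.

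The 3 of 6 gland and respiratory markers summed to 1195.8 to 2322.5 FPKM in injured and 3056.4 to 4998.8 in uninjured libraries, nearly all of it the secreted protein Plunc, while Sox9 overlapped, at 11.8, 7.34 and 24.3 against 13.1, 13.3 and 13.2 FPKM. The 3 of 6 stromal markers summed to 32.8 to 101.0 FPKM in injured and 126.2 to 220.0 in uninjured libraries, where most of the sum was the matrix protein Dcn. Of the 3, Dcn alone lay wholly below, where 6.75% of all genes did, at 27.5, 62.5 and 15.3 against 116, 162 and 145 FPKM (limma adjusted p = 0.175, and 0.0112 without injured replicate 2). Col1a1 and Col1a2 went the other way, with log2 differences of 0.33 and 0.39, and the list median was 0.325. Col1a2 overlapped, at 46.5, 7.25 and 7.63 FPKM in injured and 4.95, 31.6 and 6.76 in uninjured replicates 1 to 3. The 4 of 8 leukocyte markers summed to 26.2 to 102.9 FPKM in injured and 16.3 to 47.5 in uninjured libraries, with S100a8 at 41.4, 11.3 and 22.9 against 6.34, 19.1 and 18.2 FPKM and S100a9 at 41.7, 9.78 and 18.4 against 6.87, 17.1 and 10.9 FPKM. No endothelial or blood marker had an entry of its own. Each of the 33 markers with an entry was above 0.001 FPKM, the lowest value listed, in every library. The part of these cells in the values of Myc, Ccnd1 and Cdk4 was not tested. The X-silencing RNA Xist had 0.064, 0.346 and 0.561 FPKM in injured and 27.4, 33.8 and 27.0 in uninjured replicates 1 to 3, and was the 1 gene called lower. The sex of the pooled animals is not in the labels, and a difference in sex and the injury cannot be told apart.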

How the data were processed

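Per the submitters' processing notes, the authors used FastQC, TopHat and Cuffdiff with the mouse build mm9. Versions and roles, and any scaling between libraries, are not given in the sources used here. From these tools and the heading of its gene column, the deposited table was taken to hold FPKM, a unit it does not state. Of 8078 entries 131 join several symbols, and these were not read as single genes. Summed FPKM was 164265 to 231755 per library. Read depth is unknown: among genes under 3 FPKM, no ratio between a pair of libraries was shared, within 1%, by more than 3.81% of them, so steps of whole reads were not seen, and no counting intervals are given.

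The 7987 genes that averaged 1 FPKM or more over the 6 libraries were tested with limma 3.58.1 in R 4.3.3 on log2(FPKM + 1), injured against uninjured, with trend and robust variances, no covariate and Benjamini-Hochberg adjustment. The fit was tested on simulated data. Single values were compared by exact 2-sided permutation over libraries. The 95% intervals are not adjusted for the number of genes. p-values measure the spread between pools of animals. The members and gene lists were chosen with earlier results of these data known. Named were the members, 22 core partners (14 with an entry), list members called or else the 2 most abundant plus up to 3 without overlap, the 4 nearest profiles per member, and Xist. Genes outside this rule (Gap43, Stmn2, Tubb3, Itga6, Fosl1, Trrap, Pa2g4, Cdk20, Junb, Jund, Ptprc, Tyrobp, Col1a1 and E-box targets) were named after their values were seen. Alternatives were a replicate block, each library left out, other filters, scalings, pseudocounts and variance steps, library weights and removal of genes at the lowest value. Promoter sequences are from RefSeq (GRCm38.p6). Of the 3 members 1, Cdk4, had a promoter entry. That build differs from mm9, so no other positions are given. A precursor marker is not reported here and is left out of its list. Figures used Python 3.11.15 and matplotlib 3.10.9.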

Additional observations from a re-analysis of the deposited data

How the results depend on the processing

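Cdk4 stayed on the same side of the threshold in all 20 alternatives, and Myc and Ccnd1 in 19 of 20 each, with an unchanged sign throughout. With 1 library left out, the log2 difference ranged from 0.36 to 1.21 for Myc, 0.75 to 1.54 for Ccnd1 and 0.655 to 1.07 for Cdk4. The share of Ccnd1 among D cyclins ranged from 19.4 to 25.7 points above the uninjured share and that of Cdk4 in Cdk4 plus Cdk6 from 0.89 to 4.62 points. The number of genes called ranged from 1 to 365, with 365 without injured replicate 2, 5 without injured replicate 1, 3 without uninjured replicate 1 or 2, and 2 without uninjured replicate 3. Against 1 gene called as described, 3 were called with upper-quartile scaling, 4 with quantile normalization, 6 without trend and robust steps, 2 with a pseudocount of 0.1, 2 without genes at the lowest value and 134 with library quality weights, in which injured replicate 2 had a weight of 0.259. Alternatives chosen after seeing the data left out injured replicate 2 and also applied upper-quartile scaling (207 genes called), quantile normalization (211) or removal of Mir703 (213). The cause of these shifts was not tested. Same-numbered libraries did not deviate together (correlations of deviations -0.089, 0.068 and -0.078), and 2 of 6 libraries correlated best with their own number. A fit with the replicate number as a block called 221 genes, none of them Myc, Ccnd1 or Cdk4 (limma adjusted p = 0.453, 0.132 and 0.376), and paired exact permutation gave p = 0.25 for the Ccnd1 share, the smallest 3 pairs allow. With 3 libraries a group and unknown depth, differences of the size of Myc's were within the spread of the injured libraries.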

Other observations

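Some cell cycle genes owed a high group mean to 1 library, an observation made after the values were seen. Cdkn1a in injured replicate 3, at 136 FPKM, was 6.16 times the next library. Cdk20, a kinase of the cyclin-dependent family, was at 19.8 FPKM in injured replicate 1, which was 5.92 times the next library. Genes at 10 FPKM or more in 1 library and at least 4 times the next highest numbered 49, 65 and 10 in injured replicates 1 to 3, against 5, 4 and 9 in uninjured replicates 1 to 3. Myc, Ccnd1 and Cdk4 were not among them.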
